A study of Mus musculus with 8 samples.

Results

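Cholesterol and fatty acid synthesis genes were followed in the distal trachea and carina of old and young mice. The 27 genes comprise 20 of cholesterol synthesis, its regulation and sterol transport, and 7 of fatty acid synthesis, elongation, desaturation and their regulation, among 18193 genes measured. Each was represented by the brightest of the probe sets whose only gene symbol was that of the member, by mean log2 signal over 8 arrays, and all 27 members were measured. Old mice were 14 months of age and young mice 2 months, all female, all C57Bl/6 with no treatment named, with 4 mice and 1 array per mouse in each group. The old mice carry the numbers 1, 2, 5 and 6, and the young mice 3, 4, 7 and 8. The whole dissected airway wall was used, so that epithelium, cartilage, smooth muscle, nerve and any attached fat could contribute to each RNA. C57Bl/6 mice in the study came from several suppliers, and which supplier provided the arrayed mice is not given in the sources used here.

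Cells build cholesterol from acetyl-CoA through mevalonate, isoprenoids, squalene and lanosterol, and build saturated fatty acids from the same precursor before elongases lengthen them and desaturases introduce double bonds. SREBP transcription factors control both pathways: SREBP2, encoded by Srebf2, acts mainly on sterol genes and SREBP1, encoded by Srebf1, mainly on fatty acid genes, and INSIG proteins hold both in the endoplasmic reticulum when sterol is plentiful. In airway these lipids go into membranes, and fatty acid synthesis is prominent in fat and in the myelin of nerves, both of which border the trachea.

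Values are array signals on a linear scale in arbitrary units, and a difference is given as log2 fold change, old minus young, so that a negative value is a lower signal in old mice. The median signal over all probe sets was 150.0 to 161 per array, and arrays correlated at 0.951 to 0.958 within an age and 0.947 to 0.952 between ages. Airway identity was visible in the club cell gene Scgb1a1, whose mean signal was 28761 ± 2480.0 (SD, n = 4) in old and 29858 ± 1946 in young mice, in the basal cell keratin Krt5 at 2041 ± 191 and 1645 ± 121, and in the cartilage collagen Col2a1 at 2184 ± 447 and 2495 ± 961. Ranked by mean signal among all genes, the members lay between percentile 38.1 and percentile 99.1.

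Of the 27 members, 1 fell with age and none rose. Scd2, a stearoyl-CoA desaturase, had a log2 fold change of -0.54 (SE 0.082, adjusted p = 0.0445, limma with Benjamini-Hochberg adjustment over all genes), against 0.55% of all genes called in either direction at an adjusted p under 0.05, 0.368% higher and 0.181% lower. At an unadjusted p under 0.05, 4 members were lower in old mice (Lss, Stard4, Srebf1 and Scd2) and 0 higher, where 7.28% of all genes were lower and 7.31% higher, 14.6% in all. In 3 members (Lss, Srebf1 and Scd2) every old mouse was below every young mouse, and in 0 the reverse held, beside 5.11% and 5.02% of all genes, 10.1% in all. By the rule of a fold above 2 with an unadjusted p under 0.05, 0 members were called, and 0.588% of all genes were lower and 1.11% higher. Because RNA came from the whole tissue, fewer cells of a type and less RNA per cell cannot be told apart in any of these differences.

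Sterol and fatty acid genes were counted separately. Over the 20 sterol genes the median log2 fold change was -0.0144, with 9 above 0 and 11 below, and the median over all genes was -0.00467. None of the 20 passed the adjusted threshold in either direction. At an unadjusted p under 0.05, 2 of them were lower and 0 higher, where 7.28% of all genes were lower and 7.31% higher. Over the 7 fatty acid genes the median was -0.11, with 2 above 0 and 5 below. Of the 7, 1 was lower at the adjusted threshold, beside 0.181% of all genes, and 2 were lower and 0 higher at the unadjusted one. The 95% interval of the difference lay inside 1.5-fold in either direction for 19 of the 20 sterol genes and 4 of the 7 fatty acid genes, and inside 2-fold for 26 of the 27 members, Fasn being the exception. Over all genes, 58.7% had an interval inside 1.5-fold in either direction.

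**Figure D1:**
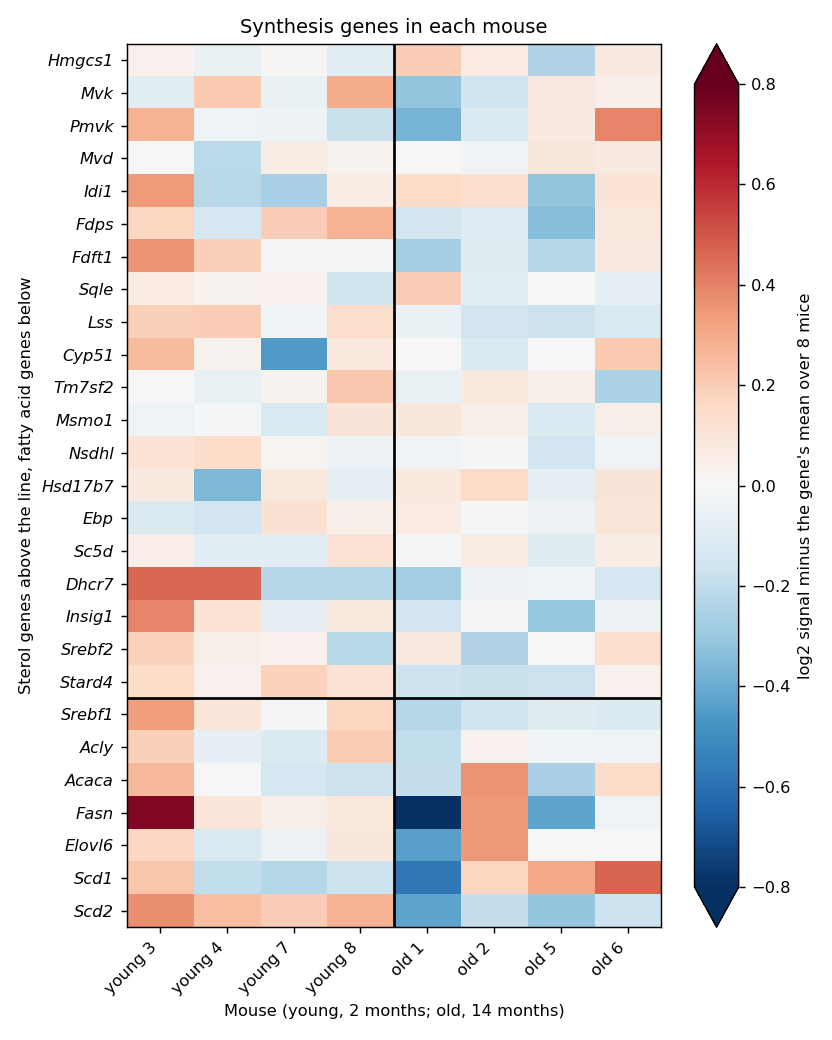
Log2 signal of each member minus its mean over the 8 mice, by mouse (columns, young then old) and gene (rows, sterol genes above the line, fatty acid genes below). Colours saturate at 0.8 on either side. The row of Scd2 is blue in all 4 old mice and red in all 4 young mice, and the column of old mouse 1 is blue in most of the fatty acid genes.

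The mevalonate branch showed no difference that passed. Hmgcs1 encodes HMG-CoA synthase, which builds HMG-CoA from acetyl units, and gave signals of 4712, 4318, 3491 and 4332 in old mice 1, 2, 5 and 6 and of 4221, 3971, 4144 and 3864 in young mice 3, 4, 7 and 8. The ages overlapped throughout, with old mouse 1 highest and old mouse 5 lowest, for a log2 fold change of 0.05 (95% interval -0.19 to 0.29, adjusted p = 0.871). The mevalonate kinase Mvk was at 155 to 202 in old and 182 to 237 in young mice, a difference of -0.18 (adjusted p = 0.574). Differences of -0.01 for the phosphomevalonate kinase Pmvk and 0.07 for the decarboxylase Mvd were also within the spread between mice (adjusted p = 0.989 and 0.768). Idi1 interconverts the basic isoprenoid units, and Fdps joins them to farnesyl diphosphate. Idi1 had old signals of 634 to 875 and young signals of 658 to 998 (log2 fold change 0.04, adjusted p = 0.941). For Fdps the old range was 512 to 687 and the young range 590.3 to 788, giving -0.26 (95% interval -0.55 to 0.04, adjusted p = 0.399). Of these 6 enzymes, 3 had a log2 fold change above 0 and 3 below.

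The enzymes that make and cyclise squalene include the only sterol gene whose old and young mice did not overlap. That was 1 of 20 sterol genes, where 10.1% of all genes did not overlap. Lss, lanosterol synthase, closes the sterol ring system, and its signals were 321, 300.1, 295 and 306 in the old and 379.9, 381, 328 and 367 in the young mice. Every old mouse lay below every young mouse, the nearest pair being old mouse 1 and young mouse 7. The log2 fold change of Lss was -0.25 (SE 0.074, 95% interval -0.42 to -0.08), its exact two-sided permutation p = 0.0286 is the smallest that 4 mice against 4 can give, 27 members being so tested, and its adjusted p = 0.186 did not pass. Fdft1, squalene synthase, had old signals of 989 to 1255 and young signals of 1181 to 1534, a log2 fold change of -0.26 with adjusted p = 0.365. Old mouse 6 was the only old mouse above any young mouse in Fdft1. Sqle, squalene epoxidase, catalyses an oxygen-dependent and rate-limiting step and differed by 0.02 (95% interval -0.20 to 0.23, adjusted p = 0.962).

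From lanosterol to cholesterol, 8 enzymes were measured, with 5 log2 fold changes above 0 and 3 below and none past the threshold. Cyp51 removes a methyl group from lanosterol and differed by 0.04 (adjusted p = 0.93), and the sterol reductase Tm7sf2 acts next and differed by -0.10 (adjusted p = 0.724). Msmo1, Nsdhl and Hsd17b7 together strip the remaining methyl groups. Their differences were 0.03, -0.11 and 0.13, with adjusted p = 0.881, 0.518 and 0.661. The signal of Nsdhl ran from 829 to 913 in old mice, and that in young mice from 892 to 1019. The isomerase Ebp and the desaturase Sc5d differed by 0.05 (95% interval -0.14 to 0.25) and 0.01 (95% interval -0.18 to 0.19), close to level between the ages. Dhcr7, the reductase that finishes cholesterol along one branch of the pathway, was uneven among young mice: its signals were 342, 342, 213 and 213 in young mice 3, 4, 7 and 8 and 206, 242, 245 and 227 in old mice 1, 2, 5 and 6. Young mice 3 and 4 stood above all old mice, and young mice 7 and 8 were within the old range. The difference of -0.23 (SE 0.19, adjusted p = 0.631) was within that spread.

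Promoter sequence is shown for Hmgcs1, Lss and Insig1, as an early sterol enzyme, the sterol enzyme whose old and young mice did not overlap and the feedback regulator, and for Fasn, the central fatty acid enzyme. The bases are the 250 before the annotated start, from RefSeq on GRCm38.p6, 5′ to 3′ on the gene's strand, and capitals mark motif matches on either strand. The sterol regulatory element searched was TCACNCCAC. The E-box was searched as CACGTG, which reads the same on both strands. The GC box was GGGCGG. The remaining motif was the CCAAT box, by the letters of its name. The windows lie at chr13:119690101-119690350 (plus strand) for Hmgcs1, chr10:76531355-76531604 (plus strand) for Lss, chr5:28071162-28071411 (plus strand) for Insig1 and chr11:120824548-120824797 (minus strand) for Fasn.
Hmgcs1: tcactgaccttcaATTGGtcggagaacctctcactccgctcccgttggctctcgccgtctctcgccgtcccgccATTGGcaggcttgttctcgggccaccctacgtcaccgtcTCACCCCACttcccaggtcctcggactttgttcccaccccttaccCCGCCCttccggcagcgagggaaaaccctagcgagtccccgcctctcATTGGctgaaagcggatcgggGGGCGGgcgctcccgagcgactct
Lss: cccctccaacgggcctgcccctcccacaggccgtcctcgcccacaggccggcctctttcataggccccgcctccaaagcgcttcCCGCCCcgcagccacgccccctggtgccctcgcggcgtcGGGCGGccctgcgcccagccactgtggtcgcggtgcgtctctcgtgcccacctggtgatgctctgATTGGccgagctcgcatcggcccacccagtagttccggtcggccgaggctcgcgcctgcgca
Insig1: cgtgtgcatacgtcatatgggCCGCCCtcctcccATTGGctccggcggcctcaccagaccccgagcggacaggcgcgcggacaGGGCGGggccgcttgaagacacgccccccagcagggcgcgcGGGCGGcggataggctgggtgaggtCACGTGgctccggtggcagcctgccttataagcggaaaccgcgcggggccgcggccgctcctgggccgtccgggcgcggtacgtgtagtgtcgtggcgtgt
Fasn: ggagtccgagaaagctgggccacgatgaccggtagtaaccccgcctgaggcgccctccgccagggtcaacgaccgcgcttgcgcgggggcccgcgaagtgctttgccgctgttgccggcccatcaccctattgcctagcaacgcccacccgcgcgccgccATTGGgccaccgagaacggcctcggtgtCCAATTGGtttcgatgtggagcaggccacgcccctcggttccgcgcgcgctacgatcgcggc
The Hmgcs1 window holds the only sterol regulatory element match of these letters among the 21 members with a promoter in the table, at -137 from the start, with 3 CCAAT boxes and 2 GC boxes. Lss holds 1 CCAAT box and 2 GC boxes. In Insig1 there are 1 E-box, 1 CCAAT box and 3 GC boxes. Fasn holds 3 CCAAT boxes, of which a pair overlap on opposite strands, and no match to the other motifs. A gene was counted for a motif if any of its windows held it, and the 21 members had 26 windows. A CCAAT box was found in 18 of the 21 members, or 85.7%, and in 37.5% of the 27025 genes in the table. Those genes were not limited to the ones measured here, and the shares were not tested against each other. A GC box was found in 17 members, against 35.4% of genes. An E-box was found in 4 (Hsd17b7, Sc5d, Dhcr7 and Insig1), against 6.86% of genes, and the sterol regulatory element in 1 against 1.22%. A match is a run of letters in a window and says nothing about binding. Fdft1, Scd1, Scd2, Fdps, Stard4 and Sqle have no entry in the table.

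Regulators and the sterol carrier all had log2 fold changes below 0, and none passed. Insig1 keeps the SREBPs in the endoplasmic reticulum and is itself an SREBP target. Its signals were 1733, 1904, 1561 and 1859 in old and 2523, 2075, 1838 and 2029.7 in young mice, and the log2 fold change was -0.26 (SE 0.12, adjusted p = 0.365). Young mouse 3 was highest, and the old and young ranges overlapped only through young mouse 7, which was below old mice 2 and 6. Srebf2, which encodes SREBP2, differed by -0.02 (95% interval -0.29 to 0.25, adjusted p = 0.962). Stard4 moves cholesterol through the cytosol between membranes. Its signals were 574, 571, 572 and 661 in old mice 1, 2, 5 and 6 and 713, 660.1, 732 and 698 in young mice 3, 4, 7 and 8. Old mouse 6 and young mouse 4 were almost level, and all other old mice were below all young mice. The log2 fold change of Stard4 was -0.24 (SE 0.076, adjusted p = 0.215).

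Srebf1, whose product SREBP1 drives fatty acid synthesis genes, separated the ages without passing the adjusted threshold. Its signals were 1336, 1402, 1462 and 1447 in old and 1972, 1667, 1547 and 1762 in young mice. No old mouse reached the lowest young mouse, which was young mouse 7. The mean was 1412 ± 56.7 (SD, n = 4) against 1737 ± 179.9, a log2 fold change of -0.29 (SE 0.089, 95% interval -0.50 to -0.09, adjusted p = 0.192, exact two-sided permutation p = 0.0286).

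Among the enzymes that make fatty acids, Acly produces cytosolic acetyl-CoA from citrate, Acaca carboxylates it to malonyl-CoA and Fasn assembles palmitate. Acly differed by -0.11 (95% interval -0.35 to 0.12, adjusted p = 0.672) and Acaca by 0.03 (95% interval -0.36 to 0.41, adjusted p = 0.963). Fasn signals were 1879, 4347, 2544 and 3344 in old mice 1, 2, 5 and 6 and 5697, 3645, 3534 and 3623 in young mice 3, 4, 7 and 8. Young mouse 3 was far above the other young mice, old mouse 1 was the lowest of all, and old mouse 2 exceeded all but young mouse 3. The log2 fold change of Fasn was -0.48 with SE 0.28 and an interval of -1.13 to 0.17 (adjusted p = 0.476), so that neither no change nor a fall beyond 2-fold lay outside the interval. Without old mouse 1 it was -0.28, without young mouse 3 -0.32, and without old mouse 2 -0.68.

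The desaturases include the member that passed. Elovl6 extends palmitate to stearate and differed by -0.04 (95% interval -0.42 to 0.33, adjusted p = 0.936). Scd1 and Scd2 are paralogous desaturases that place a double bond in saturated fatty acyl-CoAs, Scd1 being the main form of fat and sebaceous gland and Scd2 the form abundant in brain. Scd2 signals were 3179.6, 3726, 3437 and 3791 in old mice 1, 2, 5 and 6 and 5512, 5017, 4879 and 5151 in young mice 3, 4, 7 and 8. All 4 old mice were below all 4 young mice, with a gap between the highest old and the lowest young mouse. The mean was 3533 ± 282 (SD, n = 4) in old and 5139.8 ± 272 in young mice, 1.46-fold lower in old (log2 fold change -0.54, 95% interval -0.73 to -0.35, unadjusted p = 0.000213 and adjusted p = 0.0445 by limma). Scd1 signals were 7263, 12197, 13328 and 14932 in old and 12602, 9439, 9223 and 9597 in young mice. Here 3 old mice lay above 3 of the young mice and old mouse 1 lay below all of them, a log2 fold change of 0.19 (SE 0.23, 95% interval -0.35 to 0.72, adjusted p = 0.769). Without old mouse 1 the value for Scd1 was 0.41, with adjusted p = 0.306. The difference between the changes of Scd1 and Scd2 was not tested. The call for Scd2 sat close to the threshold: leaving out any 1 of the 8 mice kept the log2 fold change between -0.58 and -0.49 and raised the adjusted p to 0.0719 to 0.128. It was 0.0521 without moderation of the variance, and 0.0706 when the mice numbered 1 to 4 and 5 to 8 were fitted as separate blocks.

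**Figure D2:**
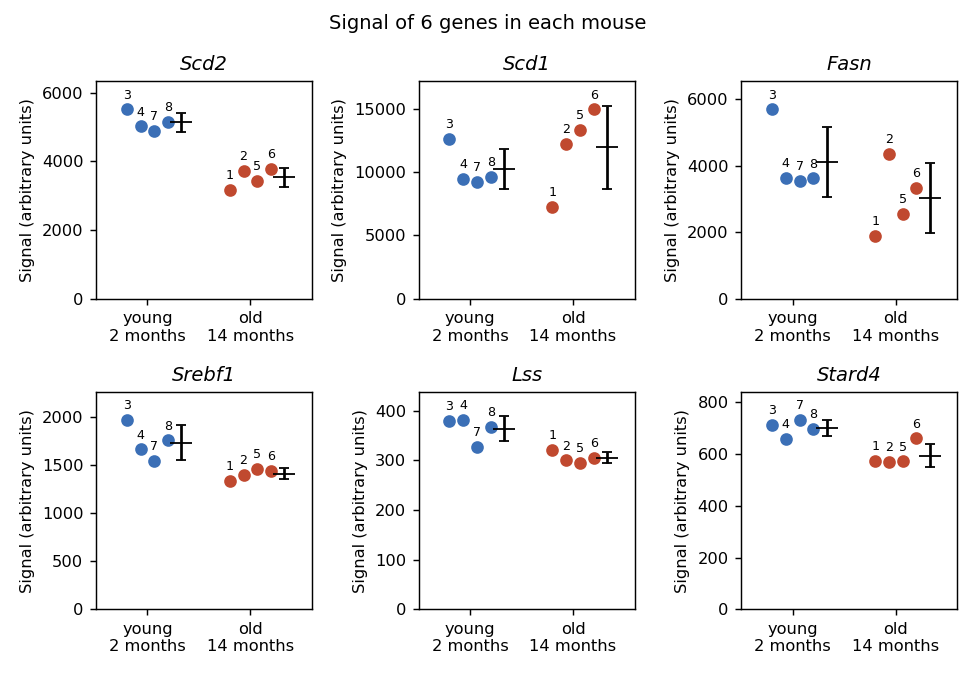
Signal of Scd2, Scd1, Fasn, Srebf1, Lss and Stard4 (vertical axes, arbitrary units, each from 0) in young and old mice, with a numbered point per mouse and the mean with SD (n = 4) beside each group. Old and young points do not overlap for Scd2, Srebf1 and Lss, old mouse 1 is lowest for Scd1 and Fasn, and young mouse 3 is highest among young mice for both.

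**Figure D3:**
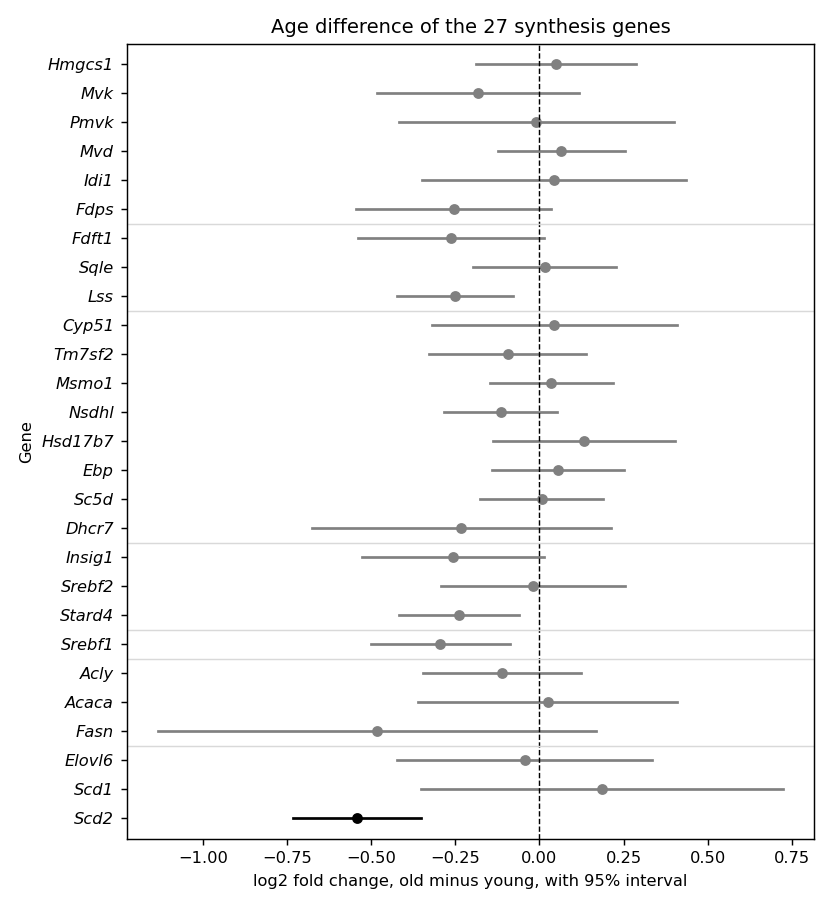
Log2 fold change of each of the 27 members, old minus young (horizontal axis), with its 95% interval, ordered by role. Scd2, in black, is the 1 member at an adjusted p under 0.05, and the interval of Fasn is the widest.

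Several members were read by more than 1 probe set, which do not always report the same transcripts. The 27 members had 62 probe sets, 9 members having 1 and 18 having several. Tested over all 45037 probe sets, none of the 62 passed, the Scd2 probe set in use having an adjusted p = 0.106. At an unadjusted p under 0.05, 6 were lower and 0 higher in old mice, all 6 from Lss, Stard4, Srebf1 and Scd2. The share over all probe sets was not counted. By gene, 7.28% of all genes were lower and 7.31% higher. For Scd2 the other probe sets gave -0.24 (mean signals 503 in old and 595 in young mice) and 0.16 (117 and 101), and the mean of the 3 gave -0.21, with adjusted p = 0.434. Stard4 had -0.39 from its next probe set and 0.12 from the dimmest. In Lss the other probe sets gave 0.06 and 0.14, so the separation of the ages rested on 1 probe set. Fdft1 had -0.26 and -0.24 from its brighter pair. In all, 9 members had probe sets whose changes differed in sign. Srebf1, Fasn, Insig1 and Dhcr7 had 1 probe set each.

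Among mice of the same age, the fatty acid genes varied mainly through old mouse 1 and young mouse 3. Each gene's log2 signal was set against its mean over the 8 mice and averaged over the list. For the 7 fatty acid genes this mean was -0.41, 0.13, -0.12 and 0.04 in old mice 1, 2, 5 and 6 and 0.33, 0.01, -0.04 and 0.07 in young mice 3, 4, 7 and 8, with a within-age SD of 0.21. Old mouse 1 was the lowest mouse and young mouse 3 the highest, while the remaining old and young mice overlapped. Old mouse 1 was the lowest of the 8 mice in 6 of the 7 genes, Acaca being the exception, where it was lowest in 13.1% of all genes. For the 20 sterol genes the means were -0.05, -0.04, -0.10 and 0.04 in old and 0.14, 0.01, -0.03 and 0.03 in young mice, with a within-age SD of 0.068, and the SDs of these lists of unequal size were not tested against each other. Old mouse 5 was lowest in 7 of the 20, against 11.5% of all genes, and young mouse 3 was highest in 8 of the 27 members, against 13.1% of all genes.

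**Figure D4:**
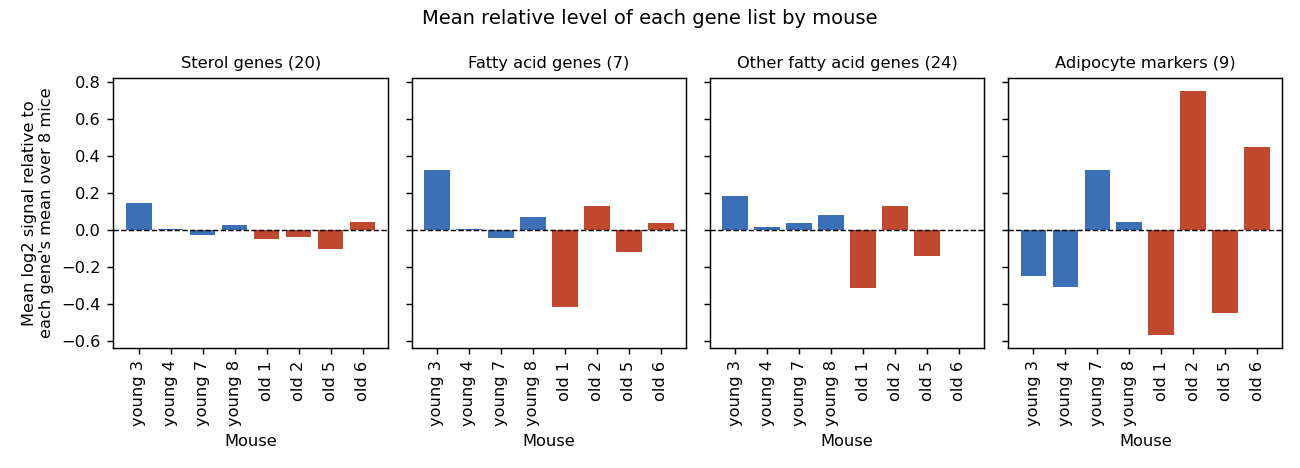
Mean over each list of the log2 signals after subtracting every gene's own 8-mouse mean (vertical axis), by mouse, for the sterol genes, the fatty acid genes, the other fatty acid genes and the adipocyte markers, with the number of genes in parentheses. Old mouse 1 has the lowest mean for both fatty acid lists and for the adipocyte markers, where by the median old mouse 5 is lowest, and old mouse 2 is above both in these lists.

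Fat cell markers also varied among old mice. Of 11 adipocyte markers 9 were measured, and their summed signal was 13206 to 27810.4 in old and 18247 to 27674 in young mice, with none at 0, Plin1 and Cfd not being analysed here. Adipoq, the hormone adiponectin of fat cells, was at 4631, 7469, 3284 and 6737 in old mice 1, 2, 5 and 6 and 4806, 4987, 9286 and 4795 in young mice 3, 4, 7 and 8 (log2 fold change -0.12, adjusted p = 0.904). Old mice 1 and 5, the lower old mice for Fasn, were also the lower old mice for Adipoq, whereas young mouse 3, highest for Fasn, was not high for Adipoq. Relative to each marker's mean over the mice, the median log2 level of the 9 was -0.21, 0.45, -0.70 and 0.24 in old and -0.10, -0.10, 0.37 and 0.07 in young mice. Old mouse 5 was lowest by this median, by the sum and in 6 of the 9 markers, and old mouse 1 was lowest in 1. The list's mean put old mouse 1 lowest instead, at -0.57 against -0.45 in old mouse 5. The widest range belonged to Ucp1, a gene of brown fat chosen after its values were seen, with signals of 13.6, 1400.0, 53.4 and 669 in old mice 1, 2, 5 and 6. By age, 3 of the 9 markers had log2 fold changes above 0 and 6 below, with a median of -0.12 and none past the adjusted threshold. At an unadjusted p under 0.05, 2 were lower and 0 higher, where 7.28% of all genes were lower and 7.31% higher. Without overlap, 1 of the 9 was lower, beside 5.11% of all genes. The lipid droplet protein Plin4 was lower in every old mouse, at 1279.8, 1301, 1272 and 1324 against 1410.0, 1414, 1583 and 1605 in young mice (log2 fold change -0.21, adjusted p = 0.234). The lipase Lipe, the other marker at an unadjusted p under 0.05, differed by -0.25 (adjusted p = 0.343), and the hormone Lep differed by 0.57 (adjusted p = 0.529). Of 9 markers of myelinating Schwann cells 6 were measured, with summed signals of 5048 to 6333 in old and 5758 to 6226 in young mice. Of the 6, 3 had log2 fold changes above 0 and 3 below, with a median of -0.00932. At an unadjusted p under 0.05, where 7.28% of all genes were lower, 1 of the 6 was lower. That gene, the myelin protein Mbp, had old signals of 1345 to 1682 and young signals of 1665 to 2003 (log2 fold change -0.35, adjusted p = 0.171). The others ran from -0.27 for Sox10 to 0.19 for Egr2. The part of fat or nerve in the values of Scd2, Scd1 and Fasn was not tested.

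Other cell type and clock lists were read beside Scd2 and Srebf1. Of 14 circadian clock genes, 4 had log2 fold changes above 0 and 10 below, and 0 passed the adjusted threshold. At an unadjusted p under 0.05, 5 were lower and 0 higher, where 7.28% of all genes were lower and 7.31% higher. Their summed signal was 19122 to 25019.5 in old and 27186 to 30636 in young mice, without overlap. Dbp, a clock output factor, was at 2122, 2336, 3791 and 3513 in old and 5651, 6124, 5609.5 and 5696 in young mice (log2 fold change -1.02, adjusted p = 0.0776). All 6 smooth muscle markers had log2 fold changes below 0, with 2 lower at an unadjusted p under 0.05 and summed signals of 70519 to 81199 in old and 80120.1 to 92531 in young mice, which overlapped. Of 8 skeletal muscle markers, 3 had log2 fold changes above 0 and 5 below, with 0 past the adjusted threshold, 2 lower and 0 higher at an unadjusted one, and summed signals without overlap, 1633 to 2302 in old and 2534 to 3295 in young mice. The brightest genes in that sum were Tnnt3 and Ckm. By the list's mean log2 level relative to each gene's mean, the ages overlapped, at -0.16 to 0.06 in old and -0.06 to 0.20 in young mice. Tnnt3, a troponin of fast muscle, was at 1142, 712, 512 and 776 in old and 1600.0, 1926, 1592 and 1337 in young mice (log2 fold change -1.09, adjusted p = 0.106). Plasma and B cell markers all had log2 fold changes above 0, 7 of 7, and 1 rose, the antibody joining chain Jchain (log2 fold change 4.48, adjusted p = 0.0343), with summed signals of 4807 to 16066 in old and 783 to 1369 in young mice. In the remaining lists 0 genes passed the adjusted threshold. At an unadjusted p under 0.05, with log2 fold changes in parentheses, 1 of 8 cartilage markers was higher (Comp, 0.66) and 2 lower (Acan, -0.56, and Col9a1, -1.01), and 2 of 10 airway epithelium markers were higher (Krt5, 0.31, and Krt8, 0.33). By the same measure 2 of 9 proliferation markers were higher (Pcna, 0.33, and Mcm5, 0.75) and 1 lower (Cdk1, -0.54), 1 of 7 distal lung markers was higher (Slc34a2, 0.37) and 1 of 4 thyroid markers was higher (Tg, 1.14). Log2 fold changes above and below 0 numbered 1 and 7 for cartilage and 2 and 8 for airway epithelium markers. They numbered 4 and 5 for proliferation, 5 and 2 for distal lung and 3 and 1 for thyroid markers. Old and young mice did not overlap in Comp, Acan, Krt5, Krt8, Pcna and Slc34a2. Over all genes, 5.02% were higher and 5.11% lower in old mice without overlap. Summed signals overlapped between the ages for the cartilage, airway epithelium, proliferation, distal lung and thyroid lists. The part of these genes and cells in the values of Scd2 and Srebf1 was not tested.

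Further genes of cholesterol handling were examined from a list kept apart from the 27. Of 23 listed, 16 were measured, and 0 passed the adjusted threshold in either direction, with 2 higher and 0 lower at an unadjusted p under 0.05. Apoe, the lipoprotein that carries sterol out of macrophages and other cells, was at 2992, 3279, 3192 and 3861 in old and 2603, 2338, 2851 and 2504 in young mice. Every old mouse was above every young mouse (log2 fold change 0.37, SE 0.10, adjusted p = 0.168). Ch25h makes an oxysterol that blocks SREBP processing, and its signals were 326, 357, 475 and 421 in old and 278, 207, 295 and 309 in young mice. These did not overlap either (log2 fold change 0.54, SE 0.17, adjusted p = 0.205). Apoe and Ch25h were the 2 of the 16 without overlap, where 5.02% of all genes were higher without overlap. Mylip, a ubiquitin ligase induced by sterol excess, differed by -0.20 and Npc2, which releases cholesterol from lysosomes, by -0.16 (adjusted p = 0.371 and 0.406). All 8 macrophage markers had log2 fold changes above 0, and 0 passed the adjusted threshold. At an unadjusted p under 0.05, where 7.31% of all genes were higher, 4 of these markers were higher. Their summed signal was 29348 to 35060.4 in old and 28298 to 31195 in young mice. What part they had in the Apoe and Ch25h values was not tested. The other 7 were not analysed here.

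Of 25 other genes of fatty acid metabolism 24 were measured, G6pdx not being analysed here, and 0 passed. Over the 24 the median log2 fold change was -0.12, with 7 above 0 and 17 below. At an unadjusted p under 0.05, 1 was higher and 3 lower, beside 7.31% and 7.28% of all genes. Gpam starts glycerolipid synthesis and had signals of 2675, 2979, 2852 and 3617 in old and 3964, 3825, 4399 and 4563 in young mice, a difference of -0.47 (SE 0.11, adjusted p = 0.124). All old mice were below all young mice in Gpam. Without overlap, 3 of the 24 were lower and 1 higher in old mice, beside 5.11% and 5.02% of all genes. The elongase Elovl7 differed by 0.57 (adjusted p = 0.155), Acss2, which makes acetyl-CoA from acetate, by -0.30 (adjusted p = 0.276), and the lipid droplet protein Pnpla3 by -0.37 (adjusted p = 0.282). Old mouse 1 was the lowest mouse in 10 of the 24, where it was lowest in 13.1% of all genes. Chosen after their values were seen, the lipogenic genes Thrsp, Acacb and Mlxipl were at 1377, 15.9 and 160.0 in old mouse 1. In the other old mice they were at 1567 to 4592, 85.9 to 191 and 203 to 398, and their log2 fold changes were -0.76, -1.08 and -0.47 (adjusted p = 0.413, 0.563 and 0.506).

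**Figure D5:**
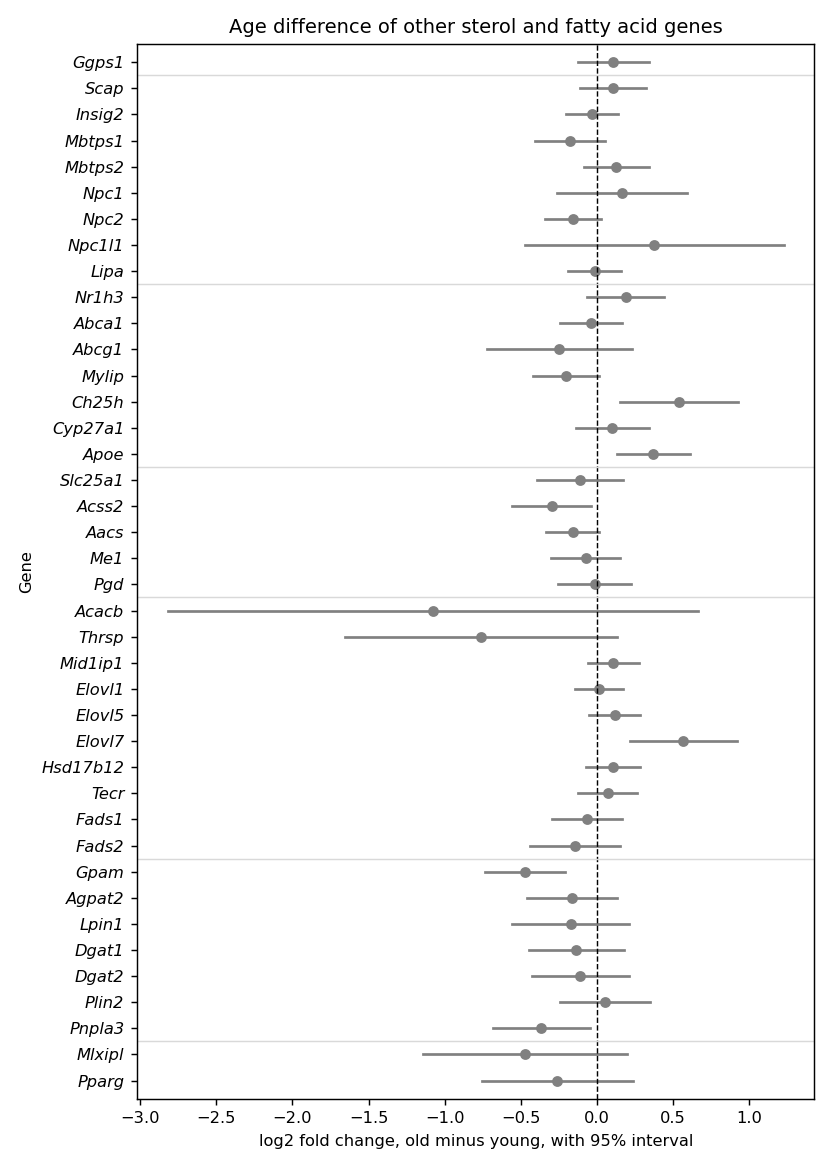
Log2 fold change, old minus young (horizontal axis), with its 95% interval, of the 16 other sterol genes and the 24 other fatty acid genes measured. None is at an adjusted p under 0.05, and the widest intervals are those of Acacb and Thrsp, both low in old mouse 1.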

How the data were processed

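RNA of the distal trachea with carina from each mouse was labelled and hybridised to an Affymetrix Mouse Genome 430 2.0 array, 1 array per mouse. The deposited values are array signal intensities on a linear scale, 1 per probe set and mouse. The study's methods name robust multichip normalization in Partek software, whereas on every array the deposited values had the same mean of 500.002 after trimming 2% at each end, so how the signals were made is not settled here, and no background flag or scan date was used. No values were below 0.106 or above 38636. Control probe sets (64) were left out, and 45037 were analysed, of which 34945 have 1 gene symbol, 932 several and 9160 none in the platform annotation. The brightest probe set per symbol by mean log2 signal gave 18193 genes. All 27 members matched RefSeq by gene identifier.

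Signals were taken to log2 without further scaling and fitted with limma 3.58.1 in R 4.3.3 (lmFit and eBayes) with age as the only term, because the second factor of the ANOVA named in the methods is not stated. Tests were two-sided, with Benjamini-Hochberg adjustment over all genes and a threshold of 0.05. Mice are separate animals by their numbers. The number of arrays, 4 per age, limits the precision. Members, gene lists and markers were chosen with earlier results of these data known. Named were all members, up to 4 genes with the smallest p from each list, up to 3 of the brightest markers per marker list, and those said to be chosen afterwards. The fit was tested on simulated data. Promoter windows came from a RefSeq table on GRCm38.p6. Alternatives changed the model, the normalization, low values, the probe set choice and the mice included.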

Additional observations from a re-analysis of the deposited data

Results flagged for a closer look

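In 6 of 70 groups of 4 mice tested over members and named genes, 1 mouse stood far from the other mice of its age, and about 1 in 20 groups would do so by chance. Young mouse 3 was the far mouse in 3 of them, with a Fasn signal of 5697 where the other young mice lay at 3534 to 3645, an Scd1 signal of 12602 against 9223 to 9597, and an Acss2 signal of 2556 against 2084 to 2116. Old mouse 5 stood low for Idi1 at 633.8, against 851 to 875, and for Nsdhl at 829, against 899.7 to 913. Old mouse 6 stood high for Stard4 at 661, against 571 to 574.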

How the results depend on the processing

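Over 20 other settings no member except Scd2 passed the adjusted threshold, and Scd2 passed in 9. Its log2 fold change was negative in every setting, and 15 of the 27 members kept their sign throughout. No call reversed. Scd2 was lost under every leave-one-out, so the count of lower fatty acid genes went from 1 to 0 there, and it was also 0 without moderation, with the number block, with the mean of all probe sets and with the rule of a fold above 2 and unadjusted p under 0.05. Other counts moved as follows, and the cause was not tested. Over all genes, 67 were higher and 33 lower. Leaving out 1 mouse gave 8 to 24 higher and 3 to 24 lower. Without moderation there were 40 higher, and with the number block 42 higher. A trended robust prior gave 270 and 217, the brighter 9096 genes 221 and 220, a floor of 32 on the signal 143 and 109, a floor of 64, added after seeing the data, 140 and 119, and the fold rule 202 and 107. The mean of all probe sets gave 11 lower. Sterol genes lower at an unadjusted p, 2, became 5 with the trended prior, 4 with array weights, 4 in the brighter 9096, 0 with the mean of probe sets and 2 to 4 without 1 mouse. Fatty acid genes lower at an unadjusted p, 2, became 1 with the mean of probe sets, and those higher, 0, became 0 to 1 without 1 mouse. Members without overlap ranged from 3 to 5 lower and 0 to 1 higher without 1 mouse. In the main fit 7.28% of all genes were lower and 7.31% higher at an unadjusted p, and 10.1% did not overlap. These shares over all genes were not counted in the other settings, so the member counts there have no background beside them. With the trended prior 1 other sterol gene was higher (Apoe) and 1 other fatty acid gene lower (Gpam), the latter also 1 in the brighter 9096. Without 1 mouse the median log2 fold change was -0.0678 to 0.0241 over the sterol genes and -0.167 to -0.0625 over the fatty acid genes. No paired analysis was made, because the sample labels name no pairs of old and young mice and no processing batch.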
